A study of Mus musculus with 12 samples.

Results

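The kinesin family is described here across 5 normal mouse lungs and 7 tumors of a mouse lung cancer model, profiled by poly-A RNA sequencing. Members are the genes whose mouse symbol is Kif followed by a number and at most one letter from a to c, or Kifc followed by a digit. The annotation used holds 41 such symbols, and 40 of them are listed among the 30399 genes of the table. Kif2b was not analysed here. All 40 passed the filter on low values, a mean of at least 1 normalized count over the 12 libraries. They were sorted by textbook role into 12 mitotic kinesins, 8 neuronal transport kinesins, 10 broad transport kinesins, 6 ciliary and Hedgehog kinesins and 4 others.

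Tumors come from a lung cancer model made with nonviral CRISPR/Cas9 mutagenesis, in which a nuclease cuts chosen genes and faulty repair can disable them. Per the labels, each library is either normal lung or tumor. Strain, age, sex, the genes targeted in each mouse and the delivery vehicle are not stated in the labels used here. Titles of tumors 3 and 4 share one number and those of tumors 5, 6 and 7 another, so the 7 tumors carry 4 title numbers, and what the number stands for is not stated. Tumors 1 and 7 carry a word for trachea in their titles, and the other tumors do not. Nothing in the labels says that libraries of a group came from separate animals, and p-values measure only the spread between these samples. Summed over genes, a normal lung library held 11126432 to 17032234 reads and a tumor library 13093843 to 24217633. At this depth 3 reads were worth at most 4.85 normalized counts in any normal lung and 3.57 in any tumor, a floor that covers counting error only.

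All of 12 lung epithelium markers and 10 endothelium markers were called lower in tumor, and all of 11 neuroendocrine and 10 proliferation markers were called higher. Over all genes tested, 24.5% were called lower and 24.0% higher. Tumor 7 stood apart in its leukocyte and cardiac markers. Its summed leukocyte markers were 66167 normalized counts over 9 listed genes, against 499.7 to 19489 in tumors 1 to 6 and 99762 to 195122 in normal lung. Its 7 listed cardiac markers summed to 39437, against 453 to 2797 in the other tumors and 330.1 to 4348 in normal lung. Y-linked genes were expressed in 4 of the 5 normal lungs and 1 of the 7 tumors, so this difference and that of tissue cannot be fully told apart. With Y-linked expression as a covariate 42.6% of all genes were called, against 48.5% without. In bulk tissue fewer cells of a type and less RNA per cell cannot be told apart.

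Kinesins are motor proteins that couple ATP hydrolysis to movement along microtubules, or in some members to taking microtubules apart. During division one set builds the spindle, moves chromosomes and organises the midzone where cytokinesis divides the cell. Other members carry vesicles, mitochondria and protein complexes, over long distances in the axons and dendrites of neurons, and a further set serves cilia. Lung holds few dividing cells at rest, and its rare neuroendocrine cells use many of the vesicle and transport proteins of neurons.

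Promoters of the mitotic members are shown first because most of them shared a sequence element that other kinesin promoters rarely held. The windows ran from 250 bases before to 50 bases after the annotated start, from RefSeq on GRCm38.p6, and 31 of the 40 members matched, with 35 windows in all. In all, 4 motifs were searched on both strands, and no matches of different motifs overlapped. TTTGAA is a core form of the cell cycle genes homology region, an element through which the MuvB-based complexes repress and then activate mitotic genes. It lay in 10 of 11 mitotic windows, against 1 of 6 neuronal, 0 of 9 broad transport, 1 of 6 ciliary, 1 of 3 other and 17.9% of all 32851 windows in the table. In 8 of the 11 mitotic windows its first base lay within 25 bases of the start, a limit chosen after the positions were seen, against 2.65% of all windows. Of the other kinesin windows only that of Kif26b had it there, at -9, and it held CCAAT as well. CCAAT, the box bound by NF-Y, lay in 7 of 11 mitotic windows, 4 of 9 broad transport, 3 of 6 ciliary, 1 of 3 other and 0 of 6 neuronal windows, against 37.4% of all. Both motifs were held by 7 of 11 mitotic windows and 6.95% of all.

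The stretches below run from 80 bases before to 30 bases after the start, and capitals mark TTTGAA or CCAAT on either strand. The 8 mitotic members with TTTGAA near the start are shown, then Kif18a, the mitotic member whose window lacked it, and Kif5c, a neuronal member with neither motif. Their positions on GRCm38.p6 are chr19:37376302-37376411 on the plus strand for Kif11, chr9:122951001-122951110 on the plus strand for Kif15 and chr11:102925095-102925204 on the minus strand for Kif18b. Kif20b lies at chr19:34922278-34922387 on the plus strand, Kif22 at chr7:127042391-127042500 on the minus strand and Kif23 at chr9:61946770-61946879 on the minus strand. Kif4 lies at chrX:100625985-100626094 on the plus strand, Kifc1 at chr17:33890604-33890713 on the minus strand, Kif18a at chr2:109280658-109280767 on the plus strand and Kif5c at chr2:49619206-49619315 on the plus strand.
Kif11: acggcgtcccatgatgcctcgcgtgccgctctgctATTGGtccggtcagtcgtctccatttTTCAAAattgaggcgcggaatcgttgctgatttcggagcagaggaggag
Kif15: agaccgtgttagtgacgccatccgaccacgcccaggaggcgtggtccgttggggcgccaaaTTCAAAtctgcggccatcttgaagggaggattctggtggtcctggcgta
Kif22: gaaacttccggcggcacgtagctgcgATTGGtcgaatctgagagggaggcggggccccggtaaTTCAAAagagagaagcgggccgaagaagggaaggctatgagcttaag
Kif18b: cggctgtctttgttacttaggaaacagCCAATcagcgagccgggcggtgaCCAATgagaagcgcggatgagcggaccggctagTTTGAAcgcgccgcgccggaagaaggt
Kif23: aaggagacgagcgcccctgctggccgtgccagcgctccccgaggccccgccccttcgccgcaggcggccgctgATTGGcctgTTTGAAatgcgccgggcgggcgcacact
Kif20b: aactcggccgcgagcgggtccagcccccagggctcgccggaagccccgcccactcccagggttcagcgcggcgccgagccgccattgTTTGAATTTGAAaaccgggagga
Kif4: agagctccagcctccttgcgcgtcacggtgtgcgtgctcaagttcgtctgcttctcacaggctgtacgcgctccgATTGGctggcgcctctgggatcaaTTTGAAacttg
Kifc1: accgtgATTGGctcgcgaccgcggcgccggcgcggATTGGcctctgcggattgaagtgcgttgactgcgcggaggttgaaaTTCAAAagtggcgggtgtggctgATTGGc
Kif18a: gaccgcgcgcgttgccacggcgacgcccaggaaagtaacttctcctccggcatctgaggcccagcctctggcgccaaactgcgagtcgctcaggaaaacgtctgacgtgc
Kif5c: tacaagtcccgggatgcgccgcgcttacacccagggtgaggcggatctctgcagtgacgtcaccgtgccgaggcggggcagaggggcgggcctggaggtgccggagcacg

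In Kif11 and Kif15 the first base of the match near the start lay at position -19, and in Kif22 at -17, counted along the gene with the first base before the start as -1. In Kifc1, Kif23, Kif18b, Kif20b and Kif4 it fell just after the start, at 2, 3, 4, 8 and 20. Kif20b held a second copy directly behind the first, at 14. The matches of Kif14 and Kif2c were farther away, at -228 and -103. GCGGGAA, an E2F-type core, was in 0 of 11 mitotic windows and 4.60% of all windows. TTCAGCACC, the left part of the RE1 element of the neuronal repressor REST, was in 0 of the 35 kinesin windows and 0.371% of all. A match is a description of these letters and no evidence of binding. Windows of Kif13b, Kif19a, Kif20a, Kif21b, Kif28, Kif5a, Kif5b, Kifc2 and Kifc3 were not used here.

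**Figure D1:**
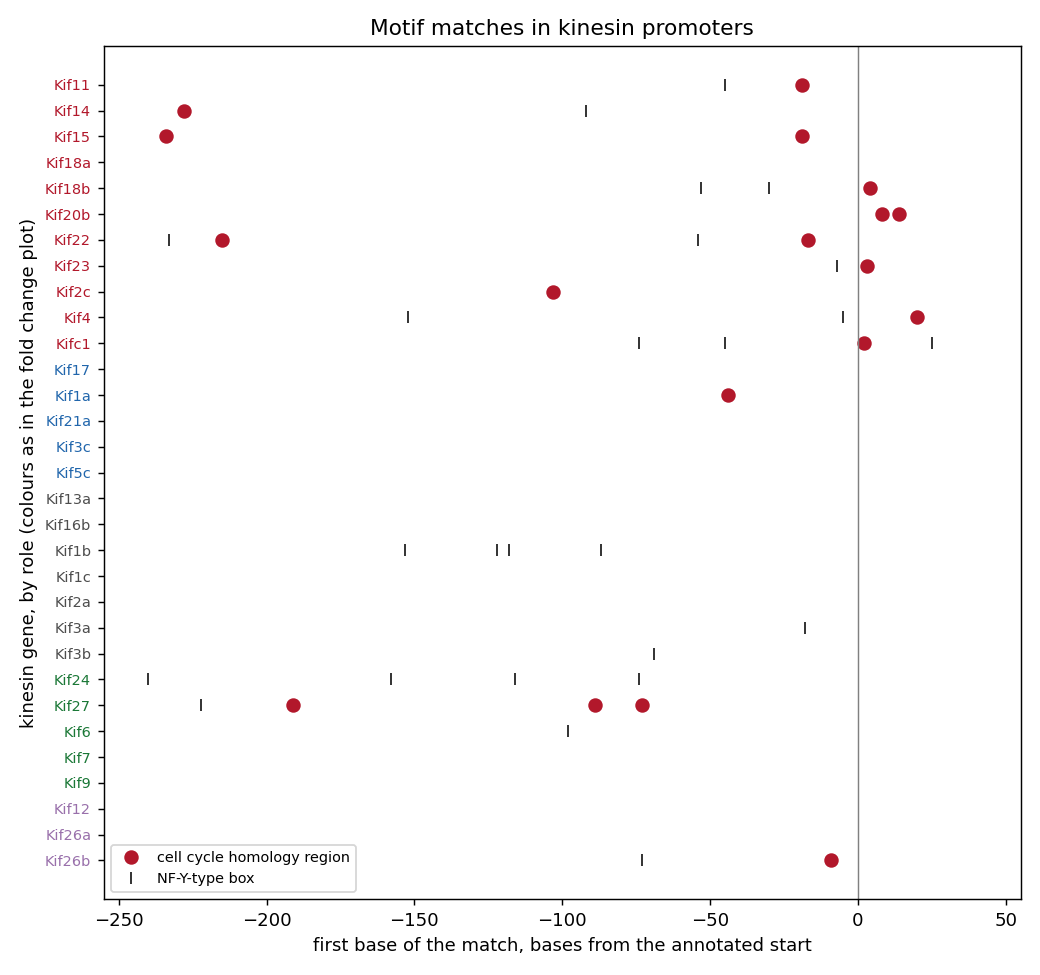
Positions of matches in the promoter windows of 31 kinesin genes, with the first base of each match in bases from the annotated start on the x axis and genes by role on the y axis (red names mitotic, blue neuronal, grey broad transport, green ciliary, purple other). Filled circles are the cell cycle homology region core and bars the NF-Y-type box, and genes with 2 windows have both drawn on one line. Circles cluster around the start in 8 of 11 mitotic genes.

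Tumors were set against normal lung to ask which motors differ between them. A gene was called when limma gave a Benjamini-Hochberg adjusted p under 0.05 over all 23674 genes tested and a log2 change whose size was 1 or more, computed on log2(normalized count + 1). Of the 40 kinesins, 21 were called higher and 6 lower in tumor. Among all genes tested 24.0% were called higher and 24.5% lower, 48.5% together. With equal library totals that balance moved from 5686 genes higher and 5805 lower to 6484 and 5163. With quantile normalization it stayed close, at 5530 and 5766. The counts were 4618 and 3767 in edgeR and 5687 and 4745 in DESeq2. Those fits used 11 libraries, another test and other genes (18308 and 24193 tested), so their shift cannot be put down to scaling alone. An adjusted p under 0.05 with a change of any size was found for 32 of the 40 kinesins and 61.5% of all genes. The median log2 fold change was 1.48 over the kinesins and 0.04 over all genes tested. In 22 kinesins every tumor lay above every normal lung and in 7 every tumor lay below, against 20.1% and 18.4% of all genes, or 38.4% in either direction. By role, 12 of 12 mitotic and 5 of 8 neuronal kinesins were called higher, against 1 of 10 broad transport and 1 of 6 ciliary members.

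**Figure D2:**
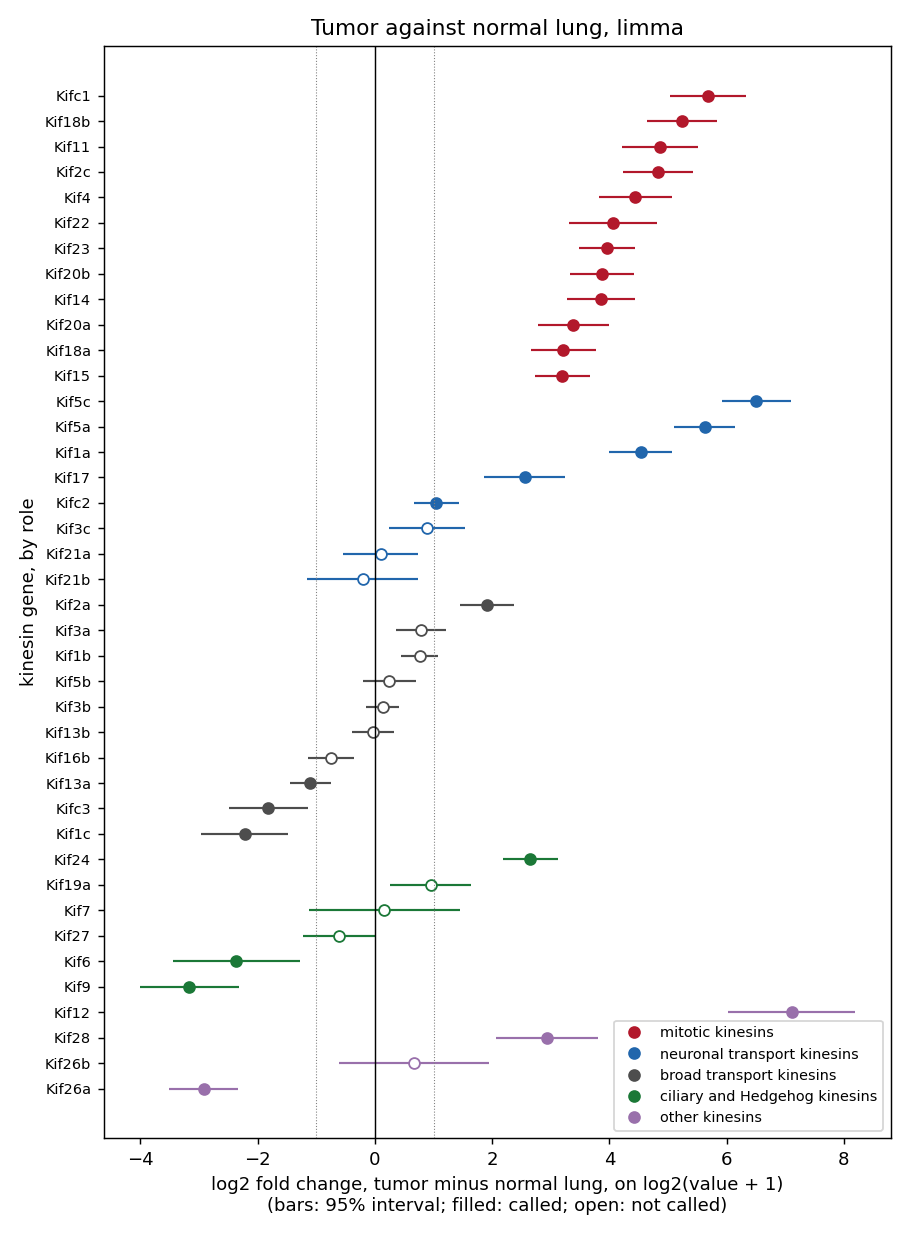
Log2 fold changes of the 40 kinesins, tumor minus normal lung on log2(normalized count + 1), with 95% intervals from limma as bars. Filled circles passed the call and open circles did not, and dotted lines mark a change of 1 in either direction. All 12 mitotic members lie between 3.20 and 5.68, while neuronal members spread from -0.21 to 6.51.

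Mitotic kinesins rose in tumor without exception, 12 of 12, with a median log2 change of 4.01. The smallest change was 3.20 for Kif15 and the largest 5.68 for Kifc1, and in all 12 the groups did not overlap. Their summed level was 579.5 to 958 normalized counts in normal lungs and 8782 to 19509 in tumors. The call held for all 12 under each of the 24 alternative settings.

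Among spindle motors, Kif11 (ENSMUSG00000012443), the motor that slides antiparallel microtubules apart to make the spindle bipolar, had 112, 76.3, 194, 77.6 and 62.1 normalized counts in the normal lungs, in order of their numbers. In tumors it ran from 1639 (tumor 2) through a median of 2616 to 4815 (tumor 5). The lowest tumor was thus far above the highest normal lung, and the log2 fold change was 4.86 (SE 0.30, adjusted p = 1.96e-08). Kif15, which can back up Kif11 in holding the poles apart, ran from 801 to 2022 in tumors, with a median of 1404. It had the highest normal lung mean of the mitotic members, 145 ± 26.6 normalized counts (SD, n = 5), and the smallest change, 3.20 (SE 0.21). Kifc1 (ENSMUSG00000079553), a minus-end motor that focuses spindle poles and gathers extra centrosomes, had 27.1, 22.6, 58.1, 31.0 and 31.0 in normal lungs. Tumors held 916 (tumor 7) to 3363 (tumor 2) normalized counts of Kifc1 with a median of 1574, and the log2 fold change was 5.68 (SE 0.30, adjusted p = 5.29e-09). Kifc1 has a near-identical copy, Kifc5b, not analysed here, and reads could be split between them.

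Chromosome motors rose as well. Kif18a and Kif18b, which damp microtubule growth at the spindle, changed by 3.21 (SE 0.26) and 5.24 (SE 0.28) on the log2 scale. Normal lungs had 31.8 ± 6.85 normalized counts of Kif18a (SD, n = 5) and tumors 309 ± 104 (SD, n = 7), while Kif18b went from 34.3 ± 16.1 to 1305 ± 393. Kif2c, which takes microtubules apart at centromeres, had 14.1 to 35.5 normalized counts in normal lungs and 373 to 855 in tumors, a log2 change of 4.82 (SE 0.28). The chromokinesins Kif4 and Kif22, which push chromosome arms, changed by 4.44 (SE 0.29) and 4.06 (SE 0.35). The annotated exons of Kif4 share 15.1% of their length with Pdzd11 on the opposite strand, and use of the strand in counting is not stated. Pdzd11 itself was 259 ± 66.7 in normal lung and 236 ± 37.8 in tumors and was not called.

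Motors of the central spindle and cytokinesis completed the set. Kif23 (ENSMUSG00000032254), the motor subunit of centralspindlin, had 125, 76.3, 130.8, 79.0 and 97.7 normalized counts in normal lungs and 971 (tumor 7), a median of 1487 and 2303 (tumor 5) in tumors. Its log2 fold change was 3.96 (SE 0.22, adjusted p = 9.02e-09). Kif20a (ENSMUSG00000003779), which carries the chromosomal passenger complex to the midzone, had 49.0, 37.6, 46.8, 32.4 and 19.5 in normal lungs, and in tumors 242 (tumor 7), a median of 376 and 587 (tumor 5). The groups of both genes were separate, and Kif20a changed by 3.38 (SE 0.28, adjusted p = 2.76e-07). Kif20a shares 29.3% of its exon length with Cdc23 on the opposite strand, which had 571 ± 31.5 and 778 ± 273 normalized counts and was not called, so the Kif20a count is uncertain. Kif14 and Kif20b, which also act in cytokinesis, changed by 3.86 (SE 0.27) and 3.87 (SE 0.25).

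Extremes of the mitotic members fell in few libraries. Tumor 5 was the highest tumor in 8 of the 12 genes and tumor 2 in 3, while tumor 7 was the lowest in 8. Proliferation markers followed the same extremes, with a summed level of 51824 in tumor 5 and 22293 in tumor 7. Among normal lungs, number 3 was highest in 8 of the 12 genes, and its proliferation markers summed to 3206 against 1599 to 1922 in the other 4. Their part in the spread of the kinesins was not tested.

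**Figure D3:**
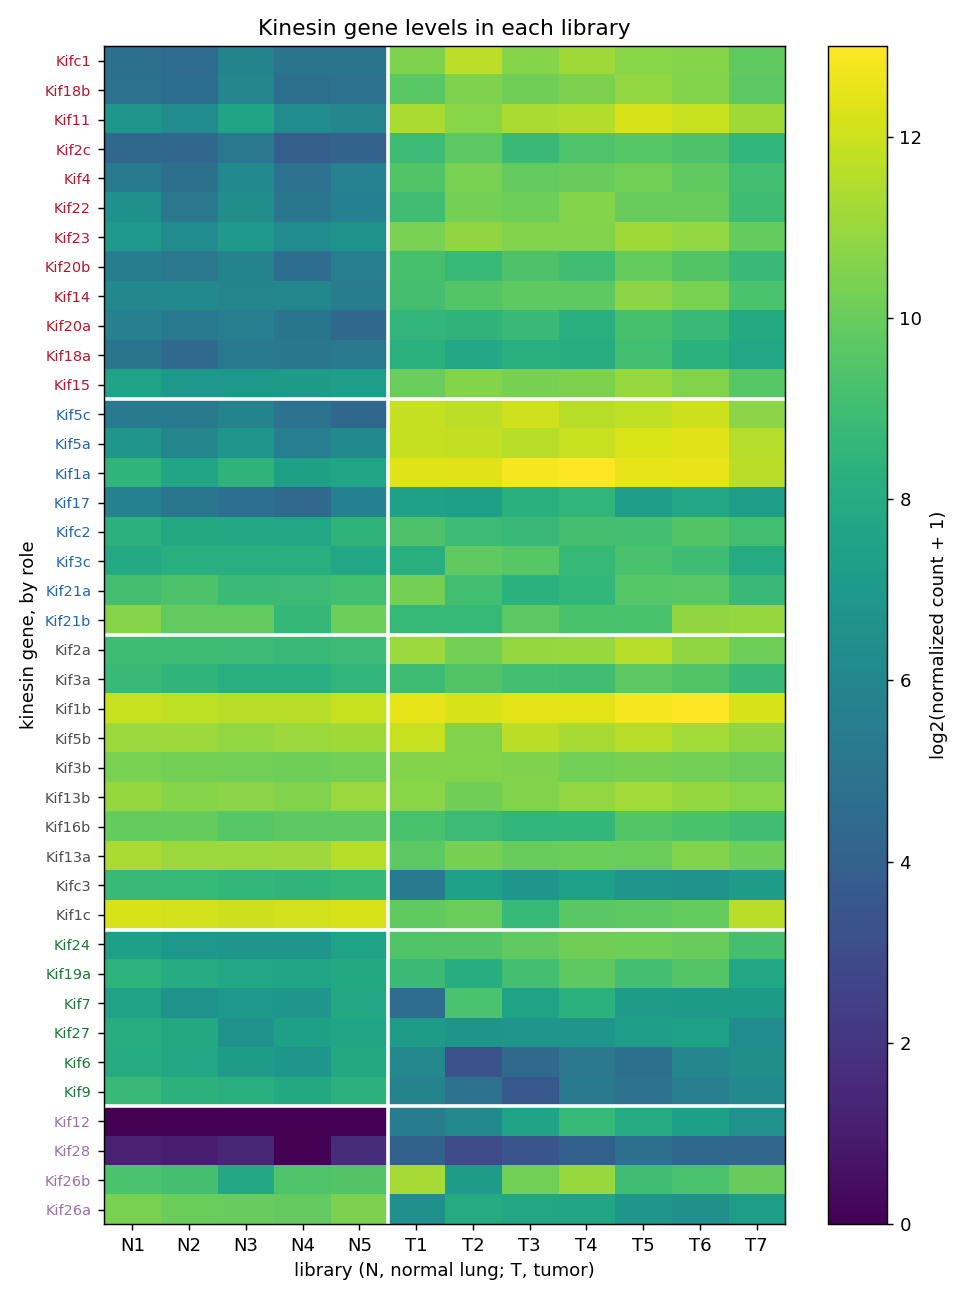
Level of each kinesin (rows, grouped by role; red names mitotic, blue neuronal, grey broad transport, green ciliary, purple other) in each library (columns; N1 to N5 normal lung, T1 to T7 tumor), as log2(normalized count + 1). The mitotic block and Kif5c, Kif5a and Kif1a change from dark to bright between normal lung and tumor, while Kif1c, Kif26a, Kif9 and Kif6 go the other way.

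Neuronal transport kinesins were split. Kif5c, Kif5a, Kif1a, Kif17 and Kifc2 were called higher, Kif3c, Kif21a and Kif21b were not called, and none was called lower. The list's median log2 fold change was 1.80, below that of the mitotic list, but its 2 largest changes exceeded most mitotic ones.

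Kif5c (ENSMUSG00000026764), a conventional kinesin heavy chain enriched in neurons, had 38.7, 39.8, 58.1, 29.6 and 19.5 normalized counts in normal lungs. In tumors it ran from 1703 (tumor 7) through a median of 3474 to 4239 (tumor 3), a log2 change of 6.51 (SE 0.27, adjusted p = 8.94e-10). Kif5a (ENSMUSG00000074657), the heavy chain of long axons, had 117.4, 62.4, 111, 46.6 and 74.7 in normal lungs and 2993 (tumor 7), a median of 3774 and 5528 (tumor 6) in tumors. For both heavy chains the lowest tumor exceeded the highest normal lung by over an order of magnitude, and Kif5a changed by 5.62 (SE 0.24, adjusted p = 9.64e-10). Kif1a (ENSMUSG00000014602), which carries synaptic vesicle precursors and dense core vesicles, had 357, 205, 355, 169 and 206 normalized counts in normal lungs. Its tumor values were 3211 (tumor 7), a median of 5916 and 8197 (tumor 4), with a log2 change of 4.53 (SE 0.25, adjusted p = 6.61e-09). All 3 genes were lowest in tumor 7, where neuroendocrine markers summed to 33559 against 52452 to 131047 in the other tumors. Among the other tumors the order differed between genes. Tumor 3, with the highest marker sum, had the highest Kif5c but a Kif5a of 3142. Tumor 6, with a sum of 65892, had the highest Kif5a. A relation of these genes to the markers was not tested.

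Smaller increases were called in 2 further members. Kif17, a dendritic motor, had 21.2 to 51.6 normalized counts in normal lungs and 148 to 374 in tumors, and changed by 2.56 (SE 0.32, adjusted p = 1.44e-05). Kifc2, a minus-end motor described in neurons, had 324, 239, 231, 223 and 347 in normal lungs and 429 to 705 in tumors. The groups of Kifc2 did not overlap, but its log2 change of 1.05 (SE 0.18, adjusted p = 2.01e-04) lay close to the limit of 1. It fell to 0.99, 0.98 and 0.99, short of the limit, without normal lung 3, normal lung 4 or tumor 6.

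The remaining 3 neuronal members were not called. Kif3c had 246, 284, 286, 285 and 221 normalized counts in normal lungs, and tumors ran from 254 (tumor 7) through a median of 496 to 923 (tumor 2). Its log2 change of 0.89 (SE 0.30, adjusted p = 0.0209) was under the limit, and it was called without tumor 7 (1.05), without tumor 1 (1.02), without both (1.23) and with all libraries scaled to the same total (1.09). Kif3c shares 35.3% of its exon length with 1110002L01Rik on the opposite strand, which had 146.3 ± 37.1 and 219.6 ± 57.0 normalized counts. Kif21b had 1619.8, 926, 937, 403 and 1121 in normal lungs and 413 (tumor 2), a median of 622 and 1970.0 (tumor 7) in tumors, and the groups overlapped over most of their range. Its difference was -0.21 (95% interval -1.16 to 0.74). Tumors 6 and 7, the highest for Kif21b, were also the highest of the tumors for summed leukocyte markers. Among normal lungs the order differed. Normal lung 4, the lowest for Kif21b, had the highest leukocyte sum, 195122, and normal lung 1, the highest for Kif21b, had 115322. A relation of Kif21b to these markers was not tested. Kif21a had a difference of 0.10 (95% interval -0.54 to 0.74), with 311 to 1228 normalized counts in tumors.

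Markers of nerve and glia were measured beside these genes, since lung holds nerve fibres. Of 8 markers 7 were tested, 3 were called higher (Th, Prph and S100b) and 1 lower. Among all genes tested 24.0% were called higher and 24.5% lower, 48.5% together. Log2 changes over the list ran from -2.78 to 7.56, with a median of 0.81. Th was listed at 0 in every normal lung, so it passed the filter on low values only through the tumors. The glial gene Sox10 was 0 to 33.9 normalized counts in normal lungs and 4.96 to 46.1 in tumors, and was not called. Summed over the list, normal lungs had 224 to 369.9 and tumors 382 to 2383 normalized counts.

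Levels of different genes were compared per kilobase of annotated exon. The make-up of the conventional kinesin heavy chains differed between the groups. In normal lung Kif5b, the widely expressed heavy chain, made up 93.9% ± 2.27 (SD, n = 5) of the Kif5 total per kilobase, Kif5a 4.199% ± 1.65 and Kif5c 1.87% ± 0.807. In tumors the shares were 23.9% ± 5.43 for Kif5b (SD, n = 7), 41.8% ± 6.36 for Kif5a and 34.3% ± 4.88 for Kif5c. None of these shares overlapped between the groups. The Kif5 total went from 283 ± 13.7 to 1371 ± 272 normalized counts per kilobase, while Kif5b itself was 2119.6 ± 137 and 2628 ± 834 normalized counts, a log2 change of 0.25 (95% interval -0.21 to 0.70) that did not pass.

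The Kif1 genes changed in opposite directions. Kif1a made up 3.27% ± 1.15 (SD, n = 5) of the Kif1 total per kilobase in normal lung and 55.5% ± 11.3 (SD, n = 7) in tumors. Kif1c, a motor of the secretory pathway in non-neuronal cells, made up 73.4% ± 1.36 and 14.5% ± 12.04. The Kif1 total was 849 ± 56.5 normalized counts per kilobase in normal lung and 1133 ± 118 in tumors. Tumor 7 kept the largest share of Kif1c, 41.0%, and tumor 3 the smallest, 4.91%. Shares of the Kif3 genes, which form the heterotrimeric kinesin of cilia and axons, were closer: Kif3b held 61.9% ± 1.59 and 50.1% ± 6.55, Kif3a 27.8% ± 3.15 and 35.3% ± 5.03, and Kif3c 10.3% ± 1.72 and 14.6% ± 4.75.

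**Figure D4:**
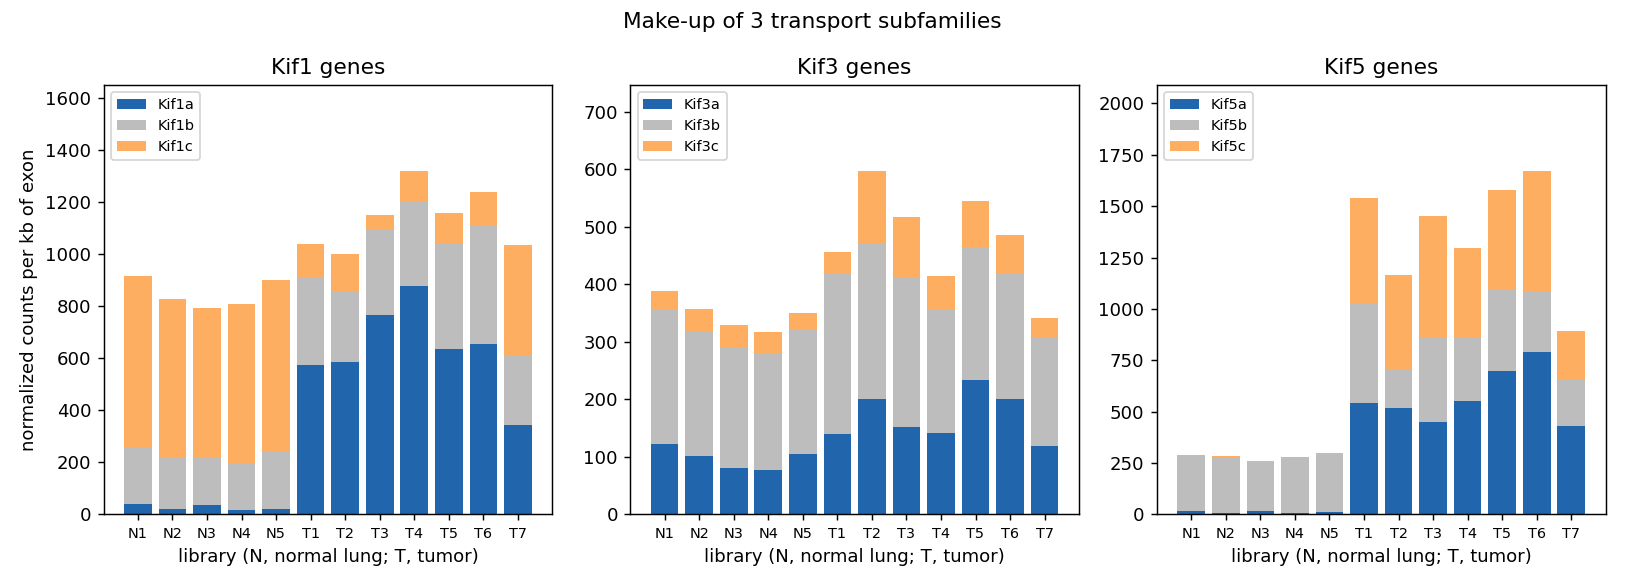
Stacked levels of the Kif1, Kif3 and Kif5 genes in each library (N1 to N5 normal lung, T1 to T7 tumor), in normalized counts per kilobase of exon, with one colour per gene and no error bars, since each bar is 1 library. Kif5b fills nearly all of the normal lung bars of its panel, and Kif5a and Kif5c the larger part of every tumor bar.

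On the same per-kilobase scale, the 3 highest kinesins in normal lung were Kif1c at 623, Kif13a at 298 and Kif5b at 266 normalized counts per kilobase on average. In tumors they were Kif1a at 634, Kif5a at 567.9 and Kifc1 at 536, followed by Kif5c at 474 and Kif11 at 396. The ranges of Kif1c and Kif13a in normal lung did not overlap, while those of Kif13a and Kif5b did, as did those of all neighbours named in tumors.

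Broad transport kinesins showed no common direction, with a median log2 change of 0.05. Of the 10, 1 was called higher, 3 lower and 6 not called, where 24.0% of all genes were called higher and 24.5% lower. Kif2a, which takes microtubules apart in dividing cells and in neurons, was the one that rose, from 500, 498, 475, 454 and 480.5 normalized counts in normal lungs to 1129 (tumor 7), a median of 1976 and 3076 (tumor 5) in tumors. Normal lungs differed little from each other here, and the change was 1.92 (SE 0.21, adjusted p = 5.00e-06). Kif2a shares 19.2% of its exon length with Dimt1 on the opposite strand, a gene also called higher (1.23, SE 0.18).

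Kif1c (ENSMUSG00000020821) had 4800.1, 4435, 4193, 4438 and 4801 normalized counts in normal lungs, and in tumors 410.5 (tumor 3), a median of 901 and 3084 (tumor 7). Every tumor was below every normal lung, but tumor 7 stood nearest to normal lung, and the log2 fold change was -2.22 (SE 0.35, adjusted p = 9.90e-05). Kifc3, a minus-end motor of epithelial junctions, had 368 to 433 in normal lungs and 41.1 to 175 in tumors (-1.82, SE 0.31). Annotated exons of 11 members, Kifc3 among them, overlap those of another gene, and the Kifc3 count is uncertain for that reason. Kif13a, a motor of recycling endosomes, had 2095 to 3110 in normal lungs and 834 to 1502 in tumors (-1.10, SE 0.16), a change that was -0.90 with all libraries scaled to the same total and -0.99 in edgeR, both short of the fold limit. Kif16b, a motor of early endosomes, had a difference of -0.75 (SE 0.18, adjusted p = 0.00265), and Kif1b and Kif3a differences of 0.76 (SE 0.15) and 0.78 (SE 0.20), each with an adjusted p under 0.05 but short of the fold limit. Kif13b and Kif3b did not pass at any size, at -0.03 (95% interval -0.39 to 0.33) and 0.13 (-0.14 to 0.40). All 12 lung epithelium markers and 10 endothelium markers fell beside Kif1c, Kifc3 and Kif13a, to sums of 979 to 4990 from 347241 to 563196 for epithelium and of 993 to 6181 from 69102 to 89910 for endothelium. All 9 leukocyte markers fell as well, and among tumors their sum was lowest in tumor 3 and highest in tumor 7. These were the tumors with the lowest and highest Kif1c, but the order between them differed. Tumor 2 had a leukocyte sum of 948 with Kif1c at 1038, and tumor 6 a sum of 19489 with Kif1c at 961. Among normal lungs, number 5 had the lowest leukocyte sum, 99762, and the highest Kif1c, 4801. The part of these 3 marker lists in the decreases was not tested.

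Ciliary and Hedgehog kinesins went both ways, with 1 called higher, 2 lower and 3 not called, where 48.5% of all genes were called. Kif9, a motor of the motile cilium, had 451, 327, 292, 241 and 324 normalized counts in normal lungs, and in tumors 10.9 (tumor 3), a median of 36.8 and 73.7 (tumor 7). Kif6, also tied to motile cilia, had 260.5, 215, 143.7, 115.7 and 238 in normal lungs, and in tumors 8.34 (tumor 2), a median of 34.1 and 84.5 (tumor 7). Both were lower in every tumor, by -3.17 (SE 0.39, adjusted p = 1.27e-05) and -2.37 (SE 0.50, adjusted p = 0.00113) on the log2 scale. Of 11 listed markers of multiciliated cells 8 were called lower and 3 were not called, where 24.5% of all genes were called lower. Log2 changes over this list ran from -5.55 to 0.75. Foxj1, the master regulator of these cells, fell from 2721 to 3785 normalized counts in normal lungs to 185 to 835 in tumors. Summed, these markers were 6580 to 9640 in normal lungs and 1069.5 to 2932 in tumors, and their part in the decrease of Kif6 and Kif9 was not tested.

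Kif24, which acts at centrioles to hold back cilium growth, rose from 161, 119, 111, 113 and 186 normalized counts in normal lungs to 573 (tumor 7), a median of 907 and 1147 (tumor 4) in tumors. The groups were separate and the change was 2.65 (SE 0.22, adjusted p = 2.82e-07). Kif19a, which sets cilium length, had 196 to 334 in normal lungs and 216 to 887 in tumors. Its difference of 0.95 (SE 0.32, adjusted p = 0.0203) was under the limit. It passed in limma with all libraries scaled to the same total (1.15), without the trachea-titled tumors (1.18) and without normal lung 1 (1.06), tumor 2 (1.08) or tumor 7 (1.14). It also passed on 11 libraries in edgeR with TMM factors (1.13) and in DESeq2 (1.09). Kif27 had a difference of -0.61 (SE 0.28, adjusted p = 0.0740).

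Kif7, which works with the Gli factors in Hedgehog signalling, had the largest spread among tumors on the log2 scale of the 40 kinesins. It had 179, 98.9, 119.5, 111 and 231 normalized counts in normal lungs, and 24.1, 629, 187.4, 312.5, 142, 133 and 136 in tumors 1 to 7. Tumor 1 was below every normal lung and tumors 2 and 4 above, with an SD of 1.43 log2 units across tumors against 0.51 across normal lungs. The mean difference was 0.16 (95% interval -1.13 to 1.45) and turned to -0.17 without tumor 2 and -0.71 with Y-linked expression as a covariate.

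Kif26a and Kif26b are kinesin relatives without normal motor activity that act in signalling. Kif26a had 1349, 1043, 1026, 931 and 1389 normalized counts in normal lungs, and in tumors 91.8 (tumor 1), a median of 155 and 251 (tumor 2). Every tumor was lower, with a log2 change of -2.92 (SE 0.27, adjusted p = 8.57e-07). Kif26b had 628, 581, 231, 683 and 699 in normal lungs and 2459, 139, 1203, 2057, 518.5, 629 and 1012 in tumors 1 to 7, so that tumor 2 lay below all normal lungs and tumors 1, 3, 4 and 7 above. Its difference of 0.66 (95% interval -0.61 to 1.94) did not pass. It was called without tumor 2 (1.09, adjusted p = 0.0416) and with Y-linked expression as a covariate (1.83, adjusted p = 0.0289).

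Kif12, an epithelial kinesin of kidney and liver, was listed at 0 in all 5 normal lungs. Tumors 1 to 7 held 43.7, 67.9, 186, 411, 251, 162 and 95.4 normalized counts. Against the floor of 3 reads in the shallowest normal library, the tumor mean of 174 ± 127 (SD, n = 7) was at least 35.9-fold higher. Kif28 was at or under the floor in every normal lung, at 0 to 2.30 normalized counts, and at 7.15 to 26.7 in tumors. Kif28 was called higher in limma (adjusted p = 3.26e-05). Kif12 was called higher as well, but it passed the filter on low values only through the tumors. Its direction was thus fixed in advance, and its p-value is no support.

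**Figure D5:**
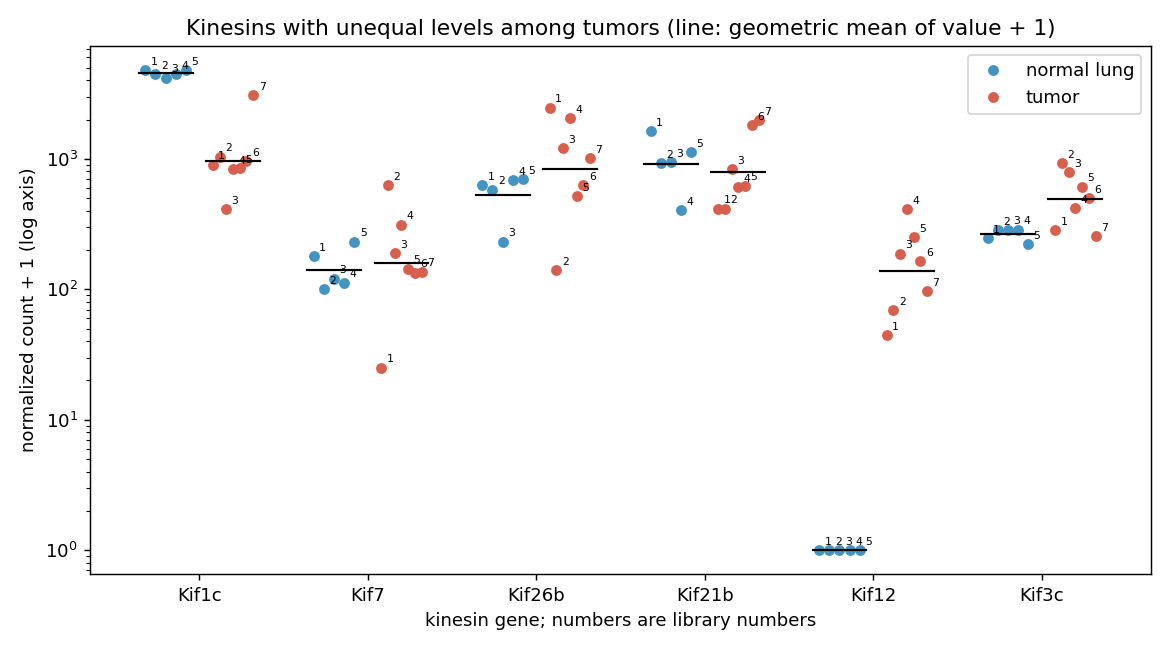
Levels of 6 kinesins in each library, as normalized count plus 1 on a log axis, with blue points for normal lung, red points for tumor, library numbers beside the points and lines at the geometric mean of each group. Kif7 runs from 24.1 to 629 and Kif26b from 139 to 2459 among tumors, Kif12 is at 0 in all normal lungs, and tumor 7 lies nearest to normal lung for Kif1c.

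Partners of the kinesins were taken from lists chosen by role. Of 19 listed spindle and cytokinesis partners 18 were called higher and none lower, with a median log2 change of 4.27. Among all genes tested 24.0% were called higher and 24.5% lower. Cenpe, the kinetochore kinesin whose symbol falls outside the family rule, rose from 35.3 ± 25.9 to 875 ± 230 normalized counts (4.80, SE 0.35). Aurkb, the kinase that Kif20a brings to the midzone, changed by 4.27 (SE 0.27), and the largest changes were those of Ckap2 (5.76, SE 0.32) and Kntc1 (5.43, SE 0.46). Prc1 was not analysed here.

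Of 25 light chains and cargo adaptors 9 were called higher and none lower, with a median log2 change of 0.59, where 24.0% of all genes were called higher and 24.5% lower. Klc1, a light chain of the Kif5 motors, rose from 2870.1 ± 1343 to 8822 ± 1964 normalized counts (1.71, SE 0.27, adjusted p = 9.21e-05). Kifap3, the third subunit of the Kif3 motor, had a difference of 0.56 (SE 0.17) and was not called. Mapk8ip2 and Ppfia3, adaptors of neurons and synapses, had the largest increases, 8.92 (SE 0.36) and 5.26 (SE 0.23). Mapk8ip2 was at 1.41 to 9.68 normalized counts in normal lungs, under the floor of 3 reads in normal lungs 3, 4 and 5. The size of its change is therefore uncertain. The opposing motor dynein and its cofactors showed 2 of 16 called higher, Bicd1 (2.62, SE 0.19) and Dynlt1b (1.97, SE 0.72), and 1 lower, Dynll1 (-1.35, SE 0.23), with a median of 0.37, so that 3 of 16 were called against 48.5% of all genes. An adjusted p under 0.05 in limma with a change of any size was found for 13 of the 16, against 61.5% of all genes. Of these, 10 were short of the fold limit. Dynlt1b belongs to a group of near-identical genes, and its count is uncertain.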

How the data were processed

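Poly-A RNA of 5 normal mouse lungs and 7 tumors was read as 150-base pairs, per the labels' protocols. The authors deposited 1 table of normalized read counts, a signal that is each gene's reads divided by a size factor of its library. The submitters' processing notes name featureCounts, DESeq2 and GRCm39, while the aligner, annotation and use of strand are not given in the sources used here. Symbols and exon lengths were taken from GENCODE M21 on GRCm38, which matched 29982 of 30399 genes.

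Tests used limma 3.58.1 with an intensity trend on log2(normalized count + 1), so that fold changes of low genes are understated, over genes with a mean of at least 1, with Benjamini-Hochberg adjustment. It was tested on simulated data. Values were whole multiples of 1 read in all 12 libraries. Those of tumor 3, where 1 read is worth close to 1 normalized count, were not used as reads, and the other 11 went into edgeR 4.0.16 and DESeq2 1.42.0 as alternatives. Other alternatives were the pseudocount, the filter, the scaling, the title numbers, the trachea titles, Y-linked expression and leaving out each library. Floors of 3 reads and depth are given with the results.

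Every family member could be named. From each partner list the 2 largest called changes in each direction and Cenpe, Klc1, Kifap3, Prc1 and Aurkb were named. Members and lists were chosen with earlier results of these data known. Marker genes of the lists were named as examples, and a few genes are not reported here. The RefSeq promoter table, on GRCm38.p6, is of an older build than the authors' counts.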

Additional observations from a re-analysis of the deposited data

Results flagged for a closer look

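Among 79 groups of kinesin values examined, 4 held a library whose gap to its nearest neighbour was large for the group's range by Dixon's criterion, and chance gives about 1 in 20, or 3.95. Kif18b was highest in normal lung 3, at 63.0 normalized counts against 28.7 in the next library. Kif26b was lowest in the same normal lung, at 231 against 581. Kif5c was lowest in tumor 7, at 1703 against 3114. Kifc3 was lowest in tumor 1, at 41.1 against 98.4.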

How the results depend on the processing

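The 8 counts of calls (all genes, kinesins higher, kinesins lower, mitotic, neuronal, broad transport, ciliary and partners) stayed within 1.5 times their value under all 24 settings, of which 12 left out 1 library each. The edgeR, DESeq2 and limma settings on 11 libraries also lack tumor 3, and that limma fit is the same as leaving out tumor 3. Kinesins called higher ranged from 20 to 23, mitotic ones were 12 throughout, and neuronal ones ranged from 4 to 6. Of 40 single members, 31 kept their direction and call wherever they were tested and 9 did not. Kif28 was not tested with a mean of at least 10. Of 959 values 12 changed sign, all of members that were not called. Kif13b was 0.17 with equal library totals, 0.10 in edgeR, 0.042 in DESeq2 and -0.108 to 0.059 with 1 library left out. Kif21b was 0.045 in edgeR. Kif21a was -0.0455 without the trachea-titled tumors and -0.087 to 0.24 with 1 library left out, lowest without tumor 1. Kif7 was -0.71 with Y-linked expression as a covariate and -0.17 to 0.60 with 1 library left out, where it was below 0 without tumor 2 or tumor 4. The cause was not tested. Equal totals moved the median of all genes by 0.19. For limma on the same 11 libraries, an alternative chosen after seeing the data, Kif26b was 0.58. No paired analysis was possible because replicate numbers were given in listing order and pair no samples. Depth limits Kif12, Kif28 and Mapk8ip2 in normal lung.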
